A study of Rattus norvegicus with 6 samples.

Results

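The Id family comprises 4 genes, Id1, Id2, Id3 and Id4, which were followed here in cultured oligodendrocyte progenitor cells (OPCs) of the rat, dividing cells from which myelinating oligodendrocytes arise. The members were taken by gene symbol, each from the probe set that the platform's annotation pairs with that symbol alone, and they were 4 of 13949 genes with such a probe set. Each had 1 probe set, so no choice between probe sets was needed. RNA was measured on 6 Affymetrix arrays. The fibrinogen group held 3 samples of OPCs stimulated for 12 h with fibrinogen, the blood clotting protein, and the control group held 3 samples of unstimulated OPCs. All OPCs had been isolated from rat pups of postnatal day 1 to 2 and left for 2 days in a medium of DMEM with N2, B27, penicillin and streptomycin, NT3 and PDGF. The rat strain, the fibrinogen dose, any vehicle given to control cells and any pooling of pups are not given in the sources used here. BMP signaling is named in the series' title as the pathway activated by fibrinogen in these cells, and Id genes are among its textbook targets.

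Id proteins are small helix-loop-helix proteins that lack the basic region with which related proteins grip DNA. They pair with E proteins, the broadly expressed basic helix-loop-helix (bHLH) factors, and so keep them from pairing with tissue-specific bHLH factors and from binding E-boxes in the promoters of differentiation genes. BMP receptors act through Smad1 and Smad5 on Id1, Id2 and Id3 in many cell types. In the oligodendrocyte lineage of rodents, Id2 and Id4 are known to hold back differentiation, and Id proteins take part in the astrocyte fate that BMPs can impose on OPCs.

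The promoters of the 4 genes are shown because the genes moved together. Each sequence runs 5′ to 3′ over 300 bases, 250 before and 50 after the annotated start, and was taken from RefSeq on build GRCr8. Capitals mark matches to 2 motifs, the E-box CANNTG and the GC-rich Smad motif GGCGCC.
Id1, chr3:161671314-161671613, plus strand: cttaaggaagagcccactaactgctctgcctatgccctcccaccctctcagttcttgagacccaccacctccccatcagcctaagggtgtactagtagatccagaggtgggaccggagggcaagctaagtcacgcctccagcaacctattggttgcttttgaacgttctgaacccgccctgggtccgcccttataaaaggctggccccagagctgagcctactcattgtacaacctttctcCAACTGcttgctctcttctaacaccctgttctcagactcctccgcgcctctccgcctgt
Id2, chr6:47470946-47471245, minus strand: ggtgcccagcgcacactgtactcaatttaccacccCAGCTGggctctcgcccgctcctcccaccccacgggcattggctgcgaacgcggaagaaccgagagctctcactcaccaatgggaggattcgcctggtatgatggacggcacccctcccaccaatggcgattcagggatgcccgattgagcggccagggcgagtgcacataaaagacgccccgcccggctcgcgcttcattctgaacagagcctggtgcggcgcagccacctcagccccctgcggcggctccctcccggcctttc
Id3, chr5:153656041-153656340, plus strand: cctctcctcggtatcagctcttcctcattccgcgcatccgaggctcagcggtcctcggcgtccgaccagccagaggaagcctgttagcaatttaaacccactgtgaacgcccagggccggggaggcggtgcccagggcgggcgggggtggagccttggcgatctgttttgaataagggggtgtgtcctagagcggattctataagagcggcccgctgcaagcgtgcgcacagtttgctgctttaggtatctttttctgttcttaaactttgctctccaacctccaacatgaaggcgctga
Id4, chr17:16598244-16598543, minus strand: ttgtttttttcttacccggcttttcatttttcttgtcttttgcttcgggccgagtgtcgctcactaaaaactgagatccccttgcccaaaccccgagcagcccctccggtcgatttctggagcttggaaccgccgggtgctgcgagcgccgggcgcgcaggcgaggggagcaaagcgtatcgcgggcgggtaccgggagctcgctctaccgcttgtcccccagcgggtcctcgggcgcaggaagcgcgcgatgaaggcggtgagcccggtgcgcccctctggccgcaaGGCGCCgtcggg

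The 4 promoters shared few of the motifs searched on both strands. An E-box lay in the Id1 promoter (CAACTG, bases -9 to -4 from the start) and in the Id2 promoter (CAGCTG, bases -215 to -210), and 72.1% of the 33469 promoters of the RefSeq table hold one. GGCGCC lay in the Id4 window alone, at bases 39 to 44 after the start, and 11% of all promoters hold it. In that window the bases after the annotated start begin with ATG and run on in that frame without a stop codon. The annotated start of Id4 may therefore be that of translation, and its GGCGCC may lie in coding sequence. If so, the Id4 window is not a promoter like the others, which also limits its GC box and GC content below. Neither the palindromic Smad motif GTCTAGAC (0.197% of all promoters) nor the cAMP response element TGACGTCA (1.83%) matched in these windows. Further motifs were searched after the sequences had been read. The GC box GGGCGG lay in each of the 4 promoters, against 33.1% of all promoters, and its 2 matches in Id3 overlapped. CCAAT lay 3 times in Id2 and once in Id1 (37.5% of all promoters), and TATAAA lay in Id1 alone (14.2%). GC content was 55.7% in Id1, 65.3% in Id2, 58% in Id3 and 65% in Id4, with a median of 51.7% over all promoters. A match is a run of letters, and binding was not measured.

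All 4 Id genes were higher in fibrinogen-stimulated than in unstimulated OPCs, by 2.38-fold for Id1, 1.86-fold for Id2, 1.63-fold for Id3 and 1.30-fold for Id4. Each passed the test applied to all genes (limma, Benjamini-Hochberg adjusted p under 0.05), and 1.81% of the 13949 genes passed it in that direction. For each of the 4 the lowest fibrinogen array lay above the highest control array, which held for 10.7% of all genes. The median log2 change was 0.80 over the 4 members and -0.0033 over all genes. In the 6 fits that each left out 1 array, the calls for Id1 and Id2 held every time, and those for Id3 and Id4 held only without fibrinogen 2. In RNA from whole cultures, fewer cells of a type and less RNA per cell cannot be told apart.

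**Figure D1:**
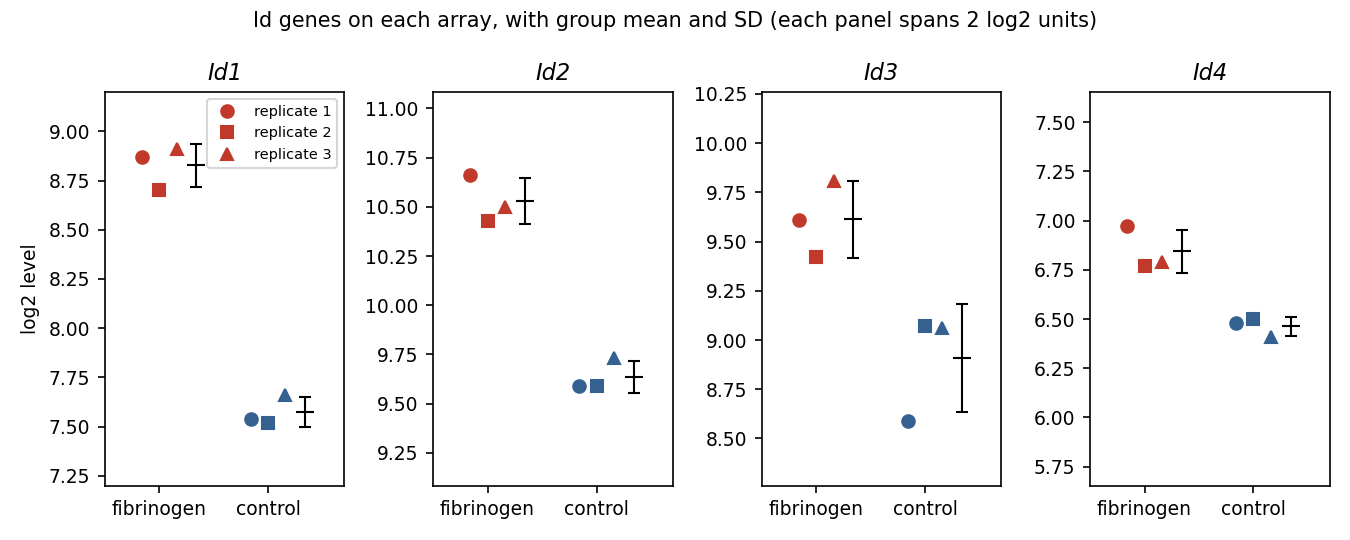
Log2 level of Id1, Id2, Id3 and Id4 on each of the 3 fibrinogen and 3 control arrays (symbols by replicate number), with the group mean and SD as a black bar. Each panel spans 2 log2 units, and in each the 3 fibrinogen arrays lie above the 3 control arrays, with gaps of 1.04, 0.70, 0.35 and 0.27 between the nearest arrays.

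Id1 changed the most. Its log2 level was 8.87, 8.70 and 8.91 on the fibrinogen arrays 1, 2 and 3, against 7.54, 7.52 and 7.66 on the control arrays 1, 2 and 3. The groups lay more than 1 log2 unit apart at their nearest arrays, and within each group the arrays lay within 0.3 of one another. The means were 8.83 ± 0.11 in fibrinogen and 7.57 ± 0.08 in control cells (SD, n = 3 each). The log2 change was 1.25 ± 0.08 (SE; 95% confidence interval 1.07 to 1.44), or 2.38-fold with an interval of 2.09 to 2.71, and the adjusted p was 0.000293 (limma). Only 3 of the 13949 genes had a larger positive log2 change.

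Id2 had log2 levels of 10.66, 10.43 and 10.50 on the fibrinogen arrays, against 9.59, 9.59 and 9.73 on the control arrays. The nearest arrays of the groups were fibrinogen 2 and control 3, 0.70 apart. Its means were 10.53 ± 0.12 in fibrinogen and 9.64 ± 0.08 in control cells (SD, n = 3 each), a log2 change of 0.89 ± 0.08 (SE; interval 0.70 to 1.09) with an adjusted p of 0.00149 (limma). It ranked 27th of all genes both by the size of its rise and by its p. Without any 1 array its log2 change stayed between 0.83 and 0.94, with an adjusted p of at most 0.0127 (limma).

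Id3 varied most within the groups. Its log2 level was 9.61, 9.42 and 9.81 on the fibrinogen arrays, against 8.59, 9.07 and 9.06 on the control arrays. Control 1 lay about 0.5 below the other controls, and the smallest gap, between fibrinogen 2 and control 2, was 0.35. The means were 9.61 ± 0.20 in fibrinogen and 8.91 ± 0.27 in control cells (SD, n = 3 each), and the log2 change was 0.71 ± 0.15 (SE; interval 0.37 to 1.04), with an adjusted p of 0.0409 (limma). Without control 1 the log2 change was 0.55, and the adjusted p was 0.0912 without control 1, 0.0760 without control 2, 0.0876 without control 3, 0.109 without fibrinogen 1, 0.113 without fibrinogen 3 and 0.0482 without fibrinogen 2 (limma).

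Id4 had the smallest change of the family. Its log2 level was 6.97, 6.77 and 6.79 on the fibrinogen arrays, against 6.48, 6.50 and 6.41 on the control arrays. The control arrays lay within 0.1 of one another, and the nearest fibrinogen array lay 0.27 above them. The means were 6.84 ± 0.11 in fibrinogen and 6.46 ± 0.05 in control cells (SD, n = 3 each), with a log2 change of 0.38 ± 0.08 (SE; interval 0.20 to 0.56). Its adjusted p of 0.0409 equalled that of Id3, and the unadjusted values were 0.00103 for Id4 and 0.00102 for Id3 (limma). By the size of the log2 change, Id4 ranked 219th and Id3 59th among the 252 genes that rose, whose median was 0.55. The adjusted p of Id4 was 0.131 without control 1, 0.132 without control 2, 0.157 without control 3, 0.106 without fibrinogen 1, 0.0789 without fibrinogen 3 and 0.0417 without fibrinogen 2 (limma). Id4 also had the dimmest signal of the family, with a mean level 1.15 log2 units above the 95th percentile of 956 olfactory and vomeronasal receptor genes, which served as a measure of background (5.51). For Id1, Id3 and Id2 that margin was 2.69, 3.75 and 4.58.

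**Figure D2:**
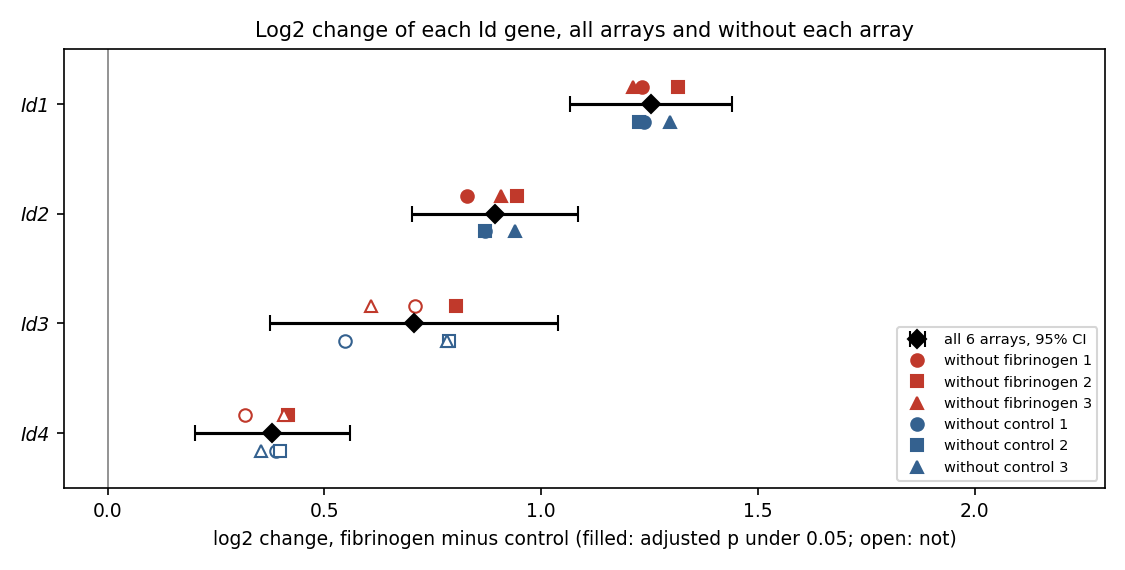
Log2 change of each Id gene, fibrinogen minus control, with all 6 arrays (diamond, with its 95% confidence interval) and with each array left out in turn. Filled symbols passed at an adjusted p under 0.05 in limma and open ones did not: all symbols of Id1 and Id2 are filled, and of Id3 and Id4 only those with all arrays and without fibrinogen 2.

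The log2 changes were ordered Id1, Id2, Id3 and Id4 from the highest to the lowest, but the test of their differences could not pass. With 3 arrays a group the exact two-sided permutation test cannot give a p under 0.1, nor under 0.1 after adjustment over the 6 pairs of genes. The log2 change of Id1 exceeded that of Id2 by 0.36, that of Id3 by 0.55 and that of Id4 by 0.87, and that of Id2 exceeded that of Id4 by 0.51. Each of these 4 pairs reached the smallest p of 0.1 (0.15 adjusted). Their SD within groups was 0.07, 0.19, 0.12 and 0.09 (n = 3 each). Id2 and Id3 differed by 0.19 with an SD of 0.22 (exact permutation p = 0.2), and Id3 and Id4 by 0.33 with an SD of 0.26 (exact permutation p = 0.3), so that these neighbours in the order had overlapping values. Levels of different probe sets are not amounts, so the brightness of the 4 signals does not rank the genes by amount of RNA.

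Within the fibrinogen group, array 2 gave the lowest value of all 4 Id genes. Among the 252 genes that rose it was the lowest fibrinogen array for 34.5%, with a tie counted for the lower-numbered array. Among all genes it was the sole lowest for 37.4%, so ties were treated differently in these shares. Fibrinogen 2 also had the widest spread of all genes about their group mean, an SD of 0.146 against 0.110 to 0.114 on the other fibrinogen arrays and 0.0862 to 0.0939 on the control arrays. Fibrinogen 3 was highest for Id1 and Id3, and fibrinogen 1 for Id2 and Id4. Without fibrinogen 2 the log2 change was 1.32 for Id1, 0.94 for Id2, 0.80 for Id3 and 0.42 for Id4, in each case the largest value of the 6 fits that left out 1 array.

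The genes whose profile over the 6 arrays was nearest to that of each Id gene were sought among 9949 genes above the receptor percentile, by the root mean square difference of log2 levels centred on each gene's own mean. Nearest to Id1 were Bgn (biglycan, a matrix proteoglycan) at 0.0687, Cav1 (the coat protein of caveolae) at 0.0916 and Gpd1 (a glycerol phosphate dehydrogenase) at 0.133, with log2 changes of 1.26, 1.42 and 1.03. Nearest to Id2 were Pmepa1 (a membrane protein that damps TGF-beta signals) at 0.0515, Ncan (neurocan, a chondroitin sulfate proteoglycan) at 0.0763 and Egln3 (an oxygen-sensing prolyl hydroxylase) at 0.0824, with log2 changes of 0.84, 0.89 and 0.74. All of these 6 genes but Bgn had, like Id1 and Id2, their lowest fibrinogen value on fibrinogen 2. Choosing genes by nearness of profile favours such a likeness, so it is no separate result.

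Nearest to Id3 were Igfbp5 (an IGF-binding protein) at 0.0986, Parm1 (a mucin-like membrane protein) at 0.105 and Trib1 (a pseudokinase) at 0.125, with log2 changes of 0.58, 0.63 and 0.63. These 3 genes also had their lowest level on control 1, a likeness that choosing them by profile favours. Nearest to Id4 were Abhd4 (a lipid hydrolase) at 0.0447, Eps15 (an endocytic adaptor) at 0.0516 and Lfng (a modifier of Notch receptors) at 0.0522, with log2 changes of 0.41, 0.32 and 0.48. With all arrays Eps15 did not pass in limma (adjusted p = 0.0591), though it did with array weights, a variance trend or dim genes left out (0.0318 to 0.0460). The other 11 of these 12 neighbours passed, where 1.81% of all genes rose. Genes chosen for a profile near that of a passing gene are prone to pass, so this count is no separate result. The neighbours of Id1 and Id2 kept their calls without any 1 array. Those of Id3 and Id4 that passed did not. All 5 lost the call without control 1 (adjusted p 0.0557 to 0.0850), control 3 (0.0691 to 0.0963) or fibrinogen 1 (0.0546 to 0.104), all but Parm1 without control 2 (0.0551 to 0.0693), all but Lfng without fibrinogen 3 (0.0561 to 0.0848), and none without fibrinogen 2. Among the Id genes themselves the nearest pair was Id1 and Id2, with a difference of 0.190, and no Id gene was among the 3 nearest to another.

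**Figure D3:**
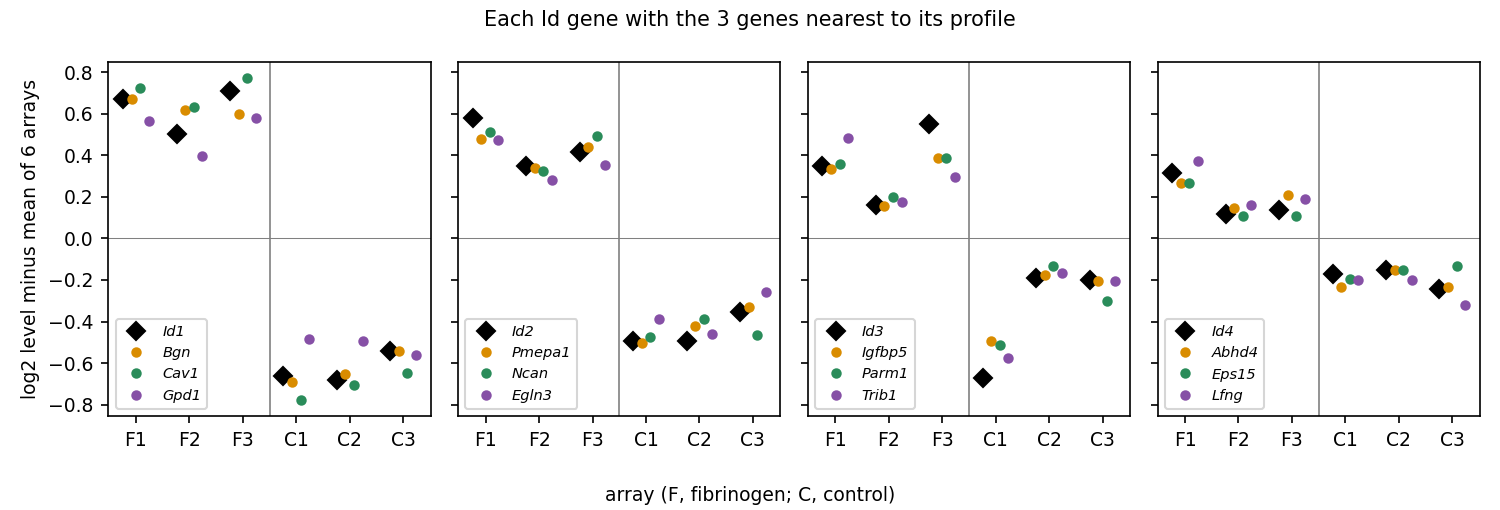
Log2 level minus the mean of the 6 arrays for each Id gene (black diamonds) and the 3 genes nearest to it (coloured points), by array (F, fibrinogen; C, control). The 4 panels share 1 scale, and the fibrinogen arrays of each Id gene lie above 0 and the control arrays below it.

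Genes for the E proteins, the binding partners of Id proteins, did not pass, and 0 of the 3 had an unadjusted p under 0.05 (limma), where 8.12% of all genes were higher and 7.46% lower. Tcf3 (E2A) had a mean log2 level of 8.50 ± 0.12 in fibrinogen and 8.31 ± 0.11 in control cells, Tcf4 (E2-2) had 10.73 ± 0.02 in fibrinogen and 10.71 ± 0.03 in control cells, and Tcf12 (HEB) had 11.33 ± 0.14 in fibrinogen and 11.19 ± 0.09 in control cells (SD, n = 3 each). The 95% confidence interval of the log2 change was -0.01 to 0.39 for Tcf3, -0.13 to 0.16 for Tcf4 and -0.06 to 0.36 for Tcf12, with adjusted p-values of 0.360, 0.943 and 0.507 (limma). The upper ends of the Tcf3 and Tcf12 intervals lay close to the log2 change of Id4, and all 3 lay below those of Id1, Id2 and Id3.

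Of 27 measured genes for tissue-specific bHLH factors, which E proteins pair with, 0 rose and 0 fell in limma (1.81% and 1.29% of all genes). At an unadjusted p under 0.05, 1 was higher and 0 were lower, against 8.12% and 7.46% of all genes, and the median log2 change was 0.03. Only 12 of the 27 lay above the receptor percentile, and a change in the dim ones could be missed. The largest differences were those of Twist1 (log2 change 0.26 ± 0.09, SE, adjusted p = 0.209 in limma) and Neurod4 (0.17 ± 0.10, adjusted p = 0.473), whose mean level of 5.25 in fibrinogen and 5.08 in control cells lay below that percentile.

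Genes for the bHLH repressors of the Hes, Hey and Bhlhe families contained 3 that rose, among 11 measured members, and 0 that fell, where 1.81% of all genes rose and 1.29% fell in limma. Bhlhe41, a repressor of the circadian clock, had log2 levels of 7.30, 7.41 and 7.26 on the fibrinogen arrays, against 6.19, 6.36 and 6.15 on the control arrays, a log2 change of 1.09 ± 0.08 (SE, adjusted p = 0.000541 in limma). Hes1, the Notch effector that BMP can also induce, had 6.69, 6.77 and 6.47 in fibrinogen, against 5.63, 5.82 and 5.66 in control cells, a log2 change of 0.94 ± 0.10 (adjusted p = 0.00207). Hey1, a related repressor, had 7.82, 7.64 and 7.75 in fibrinogen, against 7.14, 7.21 and 7.20 in control cells, a log2 change of 0.55 ± 0.07 (adjusted p = 0.00597). In each of the 3 all fibrinogen arrays lay above all control arrays, which held for 10.7% of all genes. Genes that pass are prone to such a gap, so it is no separate result. The log2 changes of Bhlhe41 and Hes1 lay between those of Id1 and Id2. The median log2 change of the list was 0.12, and without control 1 it was 0.04 with 4 members higher, and without control 3 it was 0.27.

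Of 17 other BMP-responsive genes measured, 4 rose and 0 fell in limma, against 1.81% and 1.29% of all genes, with a median log2 change of 0.11. Besides Hes1 and Hey1, already counted among the repressors, these were Nog, the BMP antagonist noggin (0.46 ± 0.08, SE), and the transcription factor gene Lef1 (0.51 ± 0.10). Nog lay at 5.90 ± 0.08 in fibrinogen and 5.43 ± 0.09 in control cells (SD, n = 3 each), the control mean being below the receptor percentile. The inhibitory Smad genes, which feed back on the pathway, did not pass: the log2 change was 0.26 ± 0.12 for Smad6 and 0.30 ± 0.08 for Smad7 (SE), with adjusted p-values of 0.339 and 0.0769 (limma), and Smad7 passed in fits limited to brighter genes (adjusted p = 0.0453 above the receptor percentile and 0.0445 above the 30th percentile of all genes). The log2 change of Smad6 was 0.14 without control 1. Smad6 lay at 5.72 ± 0.12 in fibrinogen and 5.46 ± 0.23 in control cells (SD, n = 3 each), its control mean also being below the receptor percentile. The count of members that rose was 2 without control 1 or control 2. The adjusted p of Nog was 0.0852 without control 1, 0.0940 without control 2 and 0.0565 without fibrinogen 3, and that of Lef1 was 0.0874, 0.114 or 0.0688 with control 1, 2 or 3 left out and 0.0703 or 0.0519 with fibrinogen 1 or 2 left out (limma).

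Of 16 measured genes for BMP ligands, receptors and signaling Smads, 2 rose and 1 fell, against 1.81% and 1.29% of all genes, with a median log2 change of 0.02. Smad9, a BMP-specific Smad, had log2 levels of 6.73, 6.63 and 6.52 on the fibrinogen arrays, against 6.26, 6.19 and 5.87 on the control arrays, a log2 change of 0.52 ± 0.11 (SE, adjusted p = 0.0447 in limma). Bmpr1a, a type I BMP receptor, had a log2 change of 0.34 ± 0.07 (adjusted p = 0.0442) and the ligand gene Bmp7 one of -0.43 ± 0.10 (adjusted p = 0.0490). Smad9 lost its call without each of the 6 arrays in turn, its adjusted p being 0.0673, 0.113 or 0.119 with control 1, 2 or 3 left out and 0.129, 0.0917 or 0.0712 with fibrinogen 1, 2 or 3 left out (limma). Bmpr1a kept its call without fibrinogen 2 alone, and had 0.166, 0.188 or 0.104 with control 1, 2 or 3 left out and 0.121 or 0.118 with fibrinogen 1 or 3 left out. Bmp7 also kept its call without fibrinogen 2 alone, and had 0.176, 0.0921 or 0.181 with control 1, 2 or 3 left out and 0.120 or 0.106 with fibrinogen 1 or 3 left out. Centring the arrays on their medians also ended the call for Bmpr1a (0.0543). Bmp4, the ligand gene with the largest difference, was picked out after its values were seen. It had a log2 change of -0.61 ± 0.14 and did not pass (adjusted p = 0.0600), with levels of 9.57, 9.09 and 9.64 in fibrinogen, against 9.90, 10.10 and 10.14 in control cells. With array weights, a variance trend or dim genes left out, 3 members of the list rose and 2 fell in limma. With the replicate number as a block 1 rose and 0 fell, and in a fit of all probe sets 0 rose and 0 fell.

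**Figure D4:**
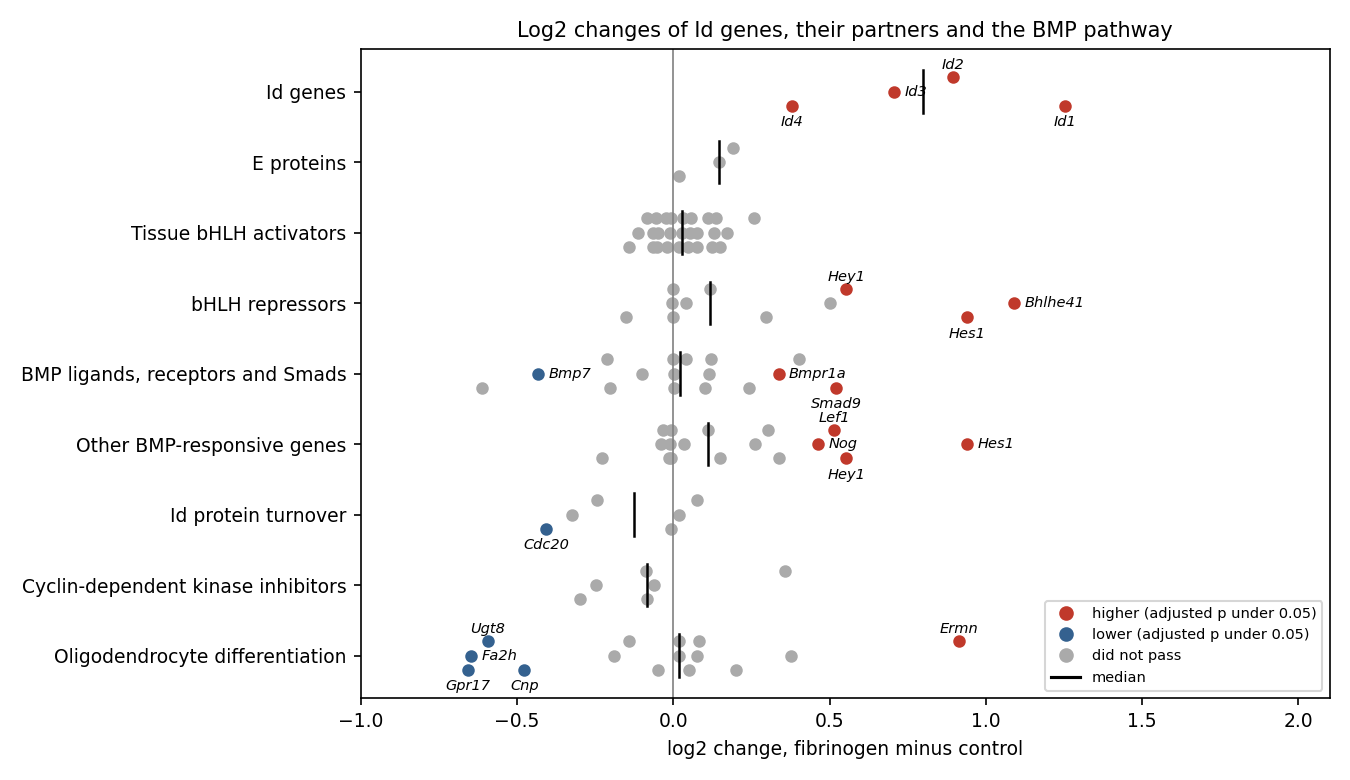
Log2 change, fibrinogen minus control, of the Id genes and of every measured member of 8 gene lists (1 point a gene, vertical bars for list medians). The 4 Id genes are all red (higher at an adjusted p under 0.05 in limma), with blue for lower and grey for not passed. The lists of E proteins and of tissue bHLH factors (labelled activators) are all grey.

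Of 6 genes whose products control the turnover of Id proteins, 1 fell and 0 rose, against 1.29% and 1.81% of all genes, with a median log2 change of -0.13. It was Cdc20 (-0.41 ± 0.09, SE, adjusted p = 0.0474 in limma), an activator of the ubiquitin ligase of mitosis, which also marks dividing cells. Of the fits without 1 array, its call held only in that without fibrinogen 2. Its adjusted p was 0.175, 0.138 or 0.158 with control 1, 2 or 3 left out and 0.0861 or 0.0685 with fibrinogen 1 or 3 left out. Before adjustment, 3 of these 6 turnover genes, Cdc20 among them, had lower levels with p below 0.05 in limma, and 0 had higher levels. By that measure 7.46% of all genes were lower and 8.12% higher. Of 6 genes for inhibitors of cyclin-dependent kinases, some of which Id proteins repress through E proteins, 0 rose and 0 fell in limma, while at an unadjusted p under 0.05 1 was higher and 2 were lower (8.12% and 7.46% of all genes). Cdkn1a (p21) had a log2 change of 0.36 ± 0.12 (SE, adjusted p = 0.182) and Cdkn2c (p18) one of -0.30 ± 0.07 (adjusted p = 0.0561). Cdkn1a passed without fibrinogen 2 (0.48, adjusted p = 0.0477) and with array weights (0.0394). Cdkn2c passed in 5 of the 8 other settings with all arrays (0.0255 to 0.0458).

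Of 15 measured genes of oligodendrocyte differentiation, the process that Id proteins hold back, 1 rose and 4 fell, against 1.81% and 1.29% of all genes, with a median log2 change of 0.02. Gpr17, a receptor gene of cells that are leaving the progenitor state, had a log2 change of -0.66 ± 0.10 (SE, adjusted p = 0.0134 in limma). The myelin lipid enzyme genes Fa2h and Ugt8 had log2 changes of -0.65 ± 0.13 (adjusted p = 0.0319) and -0.59 ± 0.09 (adjusted p = 0.00972). Cnp, a myelin enzyme gene picked out after its values were seen, had -0.48 ± 0.08 (adjusted p = 0.0147). Ermn, whose product binds actin in oligodendrocytes, rose by 0.91 ± 0.11 (adjusted p = 0.00442). Of the 15 genes, 8 had a positive log2 change. At an unadjusted p under 0.05, 2 were higher and 4 lower (8.12% and 7.46% of all genes). Besides Ermn the higher one was Cldn11 (0.38 ± 0.12), which did not pass (adjusted p = 0.169 in limma). The number that fell was 0 without control 2 or control 3. There Gpr17 had an adjusted p of 0.0690 and 0.0714, Ugt8 0.0551 and 0.0514, and Fa2h 0.131 and 0.114, and Fa2h had 0.0631 without control 1 and 0.0662 without fibrinogen 3.

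Markers of the labelled cell type and of other cells were set beside the Id genes. The 7 measured OPC markers all lay above the receptor percentile, with mean log2 levels of 10.20 to 10.37 on the fibrinogen arrays and 10.60 on the control arrays, and 4 fell (Pdgfra, Cspg4, Gpr17 and Neu4), where 1.29% of all genes fell. The other OPC markers, Sox10, Olig1 and Ptprz1, did not pass and had log2 changes of -0.05, -0.07 and -0.03. Gpr17 and Sox10 are also on the list of differentiation genes above. With 1 array left out 1 to 3 of the 7 OPC markers fell: Neu4 kept its call in all 6 of these fits, Pdgfra in that without fibrinogen 3 alone (adjusted p elsewhere 0.0628 to 0.159) and Cspg4 in none (0.0670 to 0.179). Of 8 astrocyte markers, all above that percentile, 2 rose, namely the filament gene Gfap (1.24 ± 0.16, SE) and the glutamate transporter gene Slc1a2 (0.65 ± 0.07), and 6 were higher at an unadjusted p under 0.05. Of all genes 1.81% rose and 8.12% were higher at that unadjusted p. The astrocyte markers Aqp4 and Gja1 were not among the 6, with log2 changes of 0.01 and -0.04. The mean log2 level of the 8 astrocyte markers was 8.38 to 8.48 on the fibrinogen arrays and 8.03 to 8.08 on the control arrays. Gfap, like the 4 Id genes, was lowest among fibrinogen arrays on array 2, at 9.31, with means of 9.73 ± 0.37 in fibrinogen and 8.48 ± 0.09 in control cells (SD, n = 3 each). Astrocytes also express Id genes, and the part of these markers in the rise of the Id genes was not tested. Of 8 microglia, 5 endothelial and 6 pericyte and fibroblast markers, 4, 1 and 3 lay above the receptor percentile and 0 passed in limma. At an unadjusted p under 0.05 these 3 lists held 0 higher and 1 lower (8.12% and 7.46% of all genes). Their mean log2 level was 5.29 to 5.39 on the fibrinogen and 5.33 to 5.39 on the control arrays for microglia, 4.79 to 4.82 on the fibrinogen and 4.76 to 4.82 on the control arrays for endothelial cells, and 5.45 to 5.59 on the fibrinogen and 5.60 to 5.64 on the control arrays for pericytes and fibroblasts. Of 8 neuron markers 5 lay above the percentile, and 1 below it, Gad2, fell (mean 4.77 in fibrinogen and 5.35 in control cells, adjusted p = 0.0130 in limma, or 0.0514 without control 3).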

How the data were processed

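The deposited log2 levels are the authors' values: the submitters' processing notes list RMA and limma, with no version or role, and RMA was taken as the normalization. That scale was inferred from the values, and any centring is not stated. RMA sets arrays to a common distribution and can compress differences, most of all of dim genes. Of 26312 probe sets, 1206 were blank and left out, and 14700 had 1 symbol in the platform's annotation (275 had several and 10131 none, unnamed here). 14672 matched the RefSeq table of GRCr8 by Entrez ID, and 0 symbols changed. Of several probe sets for a gene, that with the highest mean was used, giving 13949 genes. Array medians of log2 level were 6.85 to 6.89. No pair of arrays shared more than 3.63% of its values.

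Groups and replicate numbers came from the sample titles. Nothing says that replicates were separate cultures, so the spread behind each p-value may be technical. The number of arrays limits precision. Genes were tested by limma's moderated test (lmFit, eBayes; limma 3.58.1, R 4.3.3), two-sided, fibrinogen minus control, without covariates, with Benjamini-Hochberg adjustment over all 13949 genes and a threshold of 0.05. The test was tried on simulated data. Pairs of Id genes were compared by an exact permutation test. The members and the lists were chosen with earlier results of these data known. Named genes were the members, the E proteins, Smad6, Smad7, Hes1 and Hey1, up to 4 passing genes per list with the largest changes (or the 2 largest if none passed), and the 3 genes nearest to each Id gene. Among markers, lists in which 0 passed are given by counts. List genes without a probe set of their own were not analysed here. Alternatives covered the block, scaling, filters on dim genes, variance models, probe set rules and leaving out each array.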

Additional observations from a re-analysis of the deposited data

How the results depend on the processing

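Id1 and Id2 kept their direction and their call in all 14 alternatives (8 other settings with all arrays and 6 fits without 1 array), with log2 changes of 1.21 to 1.32 and 0.83 to 0.94. Id3 kept its direction in all 14 and its call in 8, and Id4 in 14 and 7. Without 1 array the log2 change of Id3 was 0.55 to 0.80 and that of Id4 0.32 to 0.42, with adjusted p-values of up to 0.113 and 0.157 (limma), and fewer samples were then tested. In a fit of all 25106 probe sets, which adjusts over more tests, Id3 (0.71) had an adjusted p of 0.0646 and Id4 (0.38) of 0.0614, 6 list members rose in place of 8, and 3 fell in place of 6; Bmpr1a, Smad9, Bmp7, Cdc20, Fa2h, Pdgfra, Cspg4 and Trib1 lost their calls there. The replicate numbers were not taken as pairs, since the labels do not say that they pair samples. Same-numbered arrays had correlations of 0.0278, 0.0217 and 0.0109 in their deviations from the group means over all genes, and each array correlated best with its own number. Correlations this weak cannot decide whether the arrays were paired. With the replicate number as a block, Id4 (0.38) had an adjusted p of 0.0687, 6 list members rose and 3 fell, and 195 genes were higher and 120 lower in place of 252 and 180. The block also ended the calls of Bmpr1a, Bmp7, Lef1, Cdc20, Fa2h, Pdgfra, Cspg4, Abhd4 and Trib1. Array weights gave 383 higher and 276 lower. Without 1 array 96 to 263 genes were higher and 55 to 173 lower, and over the 8 gene lists 4 to 8 members rose and 0 to 6 fell, against 8 and 6 with all arrays. Where no cause is shown by the alternative's own construction, the cause was not tested. All 6 differences between pairs of Id genes moved by less than their SD within groups when probe sets were averaged or 1 array was left out.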
